A study of Mus musculus with 6 samples.

Results

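Retinal photoreceptor and neuron transcripts were followed in RNA from mouse lens capsules, a preparation that is meant to hold lens epithelial cells. The group was defined by 31 gene symbols of rods, cones, bipolar cells, Müller glia and the retinal pigment epithelium, and all 31 had an Ensembl entry among the 56940 genes listed in each library. The first set of capsules was taken 5 days after a model of cataract surgery, in which the fiber cell mass is removed through an anterior incision and the capsule with its epithelium stays in the eye. The second set was taken at the time of that operation (0 h). All mice were wildtype C57BL/6, and no age is given in the sources used here. Each library held 5 pooled capsules, and 3 libraries were made at each time. Per the series' design text, each mouse was operated on 1 eye and 5 days later on the other, and both capsules were then taken, so the 0 h capsules came from animals whose other eye already had a wound. Whether same-numbered pools share mice is not stated, and p-values measure the spread between these pools.

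Photoreceptors turn light into a neural signal through a cascade in which an activated visual pigment switches on transducin, transducin releases phosphodiesterase 6 from inhibition, and the fall in cyclic GMP closes a cation channel of the outer segment. Calcium-dependent guanylate cyclases and arrestin then restore the dark state. Rods and cones use sister sets of these proteins, bipolar cells receive their signal, and Müller glia and the pigment epithelium recycle glutamate and retinoids. The lens epithelium is not known for this cascade. In bulk RNA, fewer cells of a type and less RNA per cell cannot be told apart.

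The libraries held 6207387, 7509954 and 8682659 gene counts at 5 days and 7709815, 9774343 and 8707928 at 0 h. Levels are given as CPM, the TMM-scaled count relative to library size. All 6 listed lens epithelium genes were counted in every library, with a summed level of 6373 to 17747 CPM at 5 days and 59844 to 72784 CPM at 0 h, most of it Cryaa, a lens crystallin. Of the 6, 4 fell, namely Cryaa by 2.48 on the log2 scale (SE 0.34), Cdh1, Foxe3 and Prox1, and 2 rose, Epha2 by 0.43 (SE 0.15) and Pax6 by 0.28 (SE 0.11). The lens and eye regulator Pax6 had a level of 790.8 ± 55.4 CPM at 5 days and 651.5 ± 36.6 CPM at 0 h (SD, n = 3 each), and the lens epithelium factor Foxe3 82.4 ± 35.5 CPM at 5 days and 211.4 ± 4.38 CPM at 0 h. In the edgeR quasi-likelihood fit, with p adjusted by Benjamini-Hochberg over 14676 genes and called under 0.05, 47.6% of all tested genes were called, 22.5% lower and 25.1% higher at 5 days. The median log2 fold change of all tested genes was -0.01, and scaling by total library size shifted it to 0.12 and raised the upward share of calls to 62.9%, against 52.7% with TMM.

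Retinal transcripts were present in every library and were lower at 5 days. Of the 31 genes, 28 passed the low-count filter, 26 of these fell, 0 rose and 2 were not called, beside 22.5% lower calls over all tested genes. The 3 genes that did not pass were Guca1a, Opn1mw and Pcp2. The median log2 fold change of the 28 was -2.51, and for 26 of them the 5 day libraries lay entirely below the 0 h libraries, as they did for 28.2% of all tested genes. The filter asks for about 10 counts, or 1.22 CPM, in at least 3 libraries. Of the 28 genes, 15 reached that level in all 3 libraries of 5 days, and all 15 fell. The other 13 needed at least 1 of their 0 h libraries to pass, so their calls are no separate support for a fall. The 11 of them called lower were Pde6g, Rcvrn, Gngt1, Cnga1, Guca1b, Nrl, Nr2e3, Gnat2, Opn1sw, Arr3 and Rpe65. Otx2 and Grm6 are the remaining 2. Without any 1 library, 25 or 26 of the 31 genes were called lower.

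**Figure D1:**
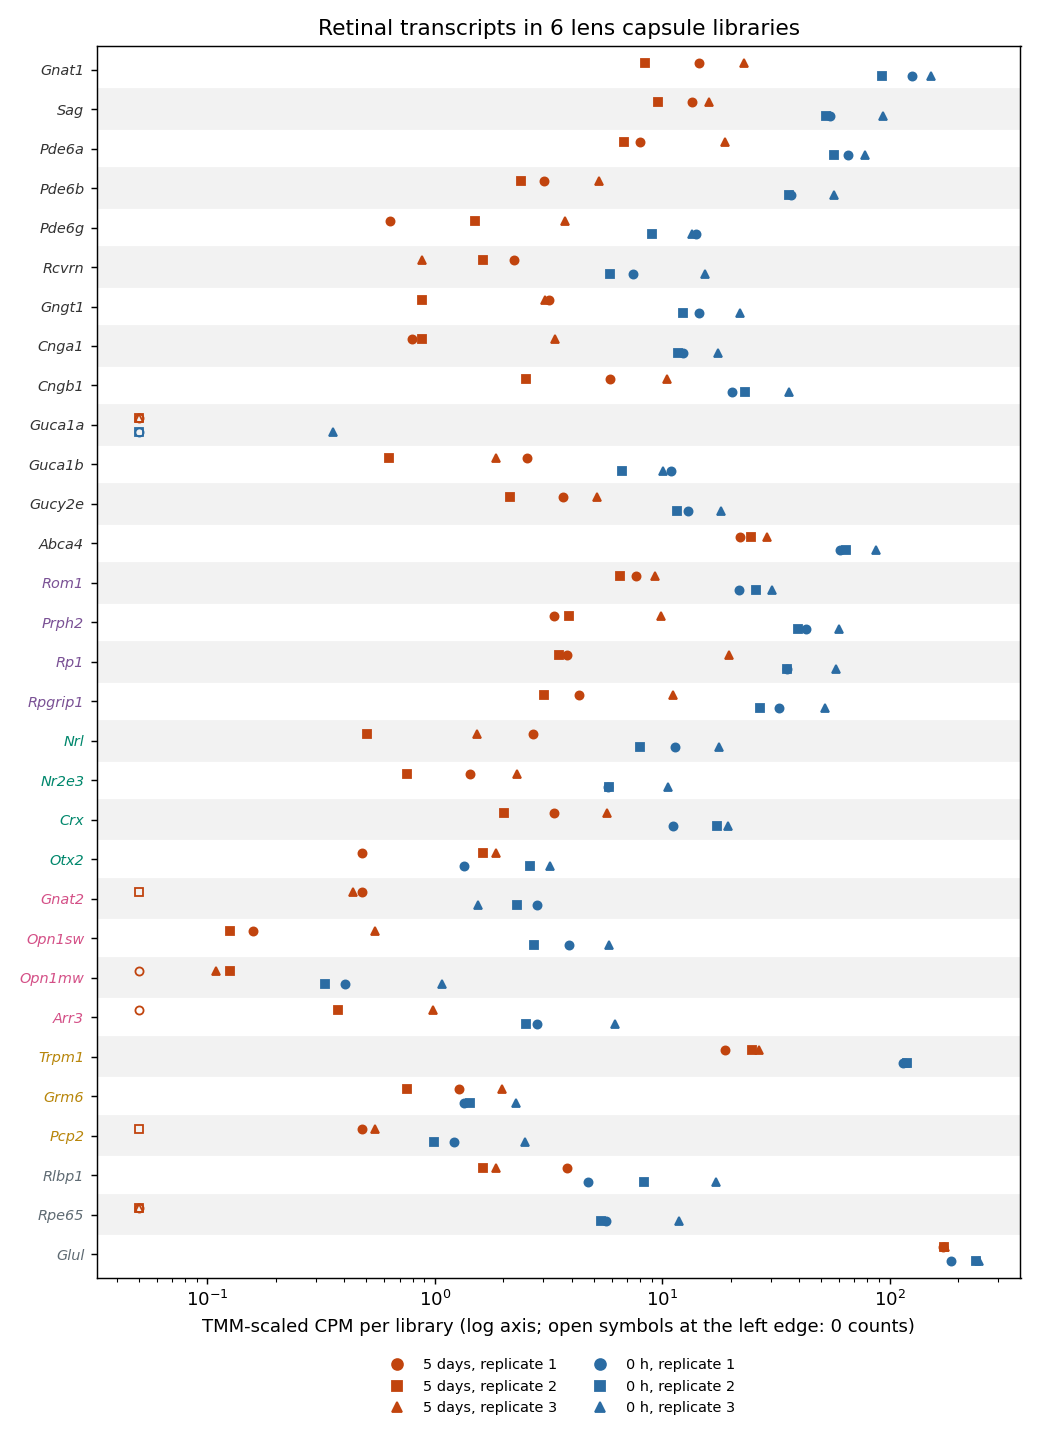
TMM-scaled CPM (log axis) of each of the 31 genes in each library, 5 days (orange) above 0 h (blue), with symbols for replicates and open symbols for 0 counts; gene names are coloured by role. The 2 times overlap for Guca1a, Otx2 and Grm6 only.

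Rod transduction genes fell together, beside 22.5% lower calls and 28.2% lower without overlap over all tested genes. Of 13 genes listed for rod transduction and adaptation 12 were tested, and all 12 fell without overlap between the times. Of these, 7 reached the filter's level in every 5 day library and 5 needed their 0 h libraries to pass. Their median change was -2.55 on the log2 scale. Their summed level was 79.9, 61.8 and 120.6 CPM in the libraries of 5 days, against 436.7, 383.3 and 602.2 CPM at 0 h. At 5 days the mean sum stood at 18.4% of that at 0 h. The sum of the 6 lens epithelium genes stood at 19.7% in the same libraries, and its part in the result was not tested. That sum was mostly Cryaa, with a mean of 62314 of 64648 CPM at 0 h. Of the 6 genes 4 fell, while Pax6 (adjusted p = 0.0483 in the edgeR fit) and Epha2, whose libraries overlapped, rose. The sum does not stand for each of the 6 genes, whose median log2 fold change was -1.30.

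Transducin is the G protein of the cascade. Its rod alpha subunit Gnat1 had 14.5, 8.41 and 22.9 CPM at 5 days, against 126.2, 92.9 and 152.6 CPM at 0 h. Every 5 day library was far below every 0 h library, a log2 fold change of -3.0 (SE 0.28, adjusted p = 3.25e-06 in the edgeR fit). Gngt1, the gamma subunit that works with it, had 3.18, 0.879 and 3.07 CPM at 5 days and 14.5, 12.4 and 21.9 CPM at 0 h, a log2 fold change of -2.78 (SE 0.39).

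Phosphodiesterase 6 hydrolyses cyclic GMP with the catalytic subunits Pde6a and Pde6b, held in check by the inhibitory subunit Pde6g. Pde6b had 3.02, 2.39 and 5.26 CPM at 5 days, against 36.8, 36.1 and 57.2 CPM at 0 h. Its log2 fold change of -3.57 (SE 0.28) was the lowest among the 12 tested rod cascade genes. Pde6a had 7.96, 6.78 and 18.9 CPM at 5 days, against 65.6, 56.7 and 78.2 CPM at 0 h, a log2 fold change of -2.54 (SE 0.29). Replicate 3 of 5 days held more than the other libraries of its time, and without it the Pde6a log2 fold change was -3.20. Pde6g had 0.637, 1.51 and 3.72 CPM at 5 days and 14.1, 9.0 and 13.5 CPM at 0 h. Its log2 fold change was -2.56 (SE 0.44), and -3.45 without replicate 3 of 5 days.

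The channel that cyclic GMP opens fell in both of its rod subunits. Cnga1, which forms the pore, had 0.796, 0.879 and 3.39 CPM at 5 days, against 12.4, 11.7 and 17.5 CPM at 0 h, a log2 fold change of -2.95 (SE 0.44). Cngb1, the modulatory subunit, had 5.89, 2.51 and 10.5 CPM at 5 days, against 20.3, 23.1 and 36.0 CPM at 0 h, a log2 fold change of -2.05 (SE 0.38). Both values rested in part on replicate 3 of 5 days, without which the Cnga1 log2 fold change was -4.03 and that of Cngb1 was -2.71.

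Genes that shut off and reset the response fell as well. Sag, the rod arrestin, had 13.5, 9.54 and 16.1 CPM at 5 days, against 54.8, 52.4 and 93.8 CPM at 0 h, a log2 fold change of -2.35 (SE 0.24). Recoverin (Rcvrn), a calcium sensor that restrains the visual pigment kinase, had 2.23, 1.63 and 0.876 CPM at 5 days and 7.41, 5.92 and 15.5 CPM at 0 h, a log2 fold change of -2.64 (SE 0.46). Here replicate 3 was the lowest library at 5 days and the highest at 0 h. The guanylate cyclase Gucy2e fell by 1.95 on the log2 scale (SE 0.32). Its calcium-sensing activator Guca1b averaged 1.68 ± 0.972 CPM at 5 days and 9.25 ± 2.24 CPM at 0 h (SD, n = 3 each), a log2 fold change of -2.48 (SE 0.42). The related activator Guca1a was barely counted, with 0 counts over the 5 day libraries and 3 over the 0 h libraries, and no fold was formed.

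Abca4, the retinoid flippase of disc membranes, fell least among the rod cascade genes. It had 22.0, 24.5 and 28.8 CPM at 5 days, against 60.6, 64.6 and 87.3 CPM at 0 h. The log2 fold change was -1.49 (SE 0.16, adjusted p = 9.13e-06 in the edgeR fit), and it lay between -1.62 and -1.32 without any 1 library.

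**Figure D2:**
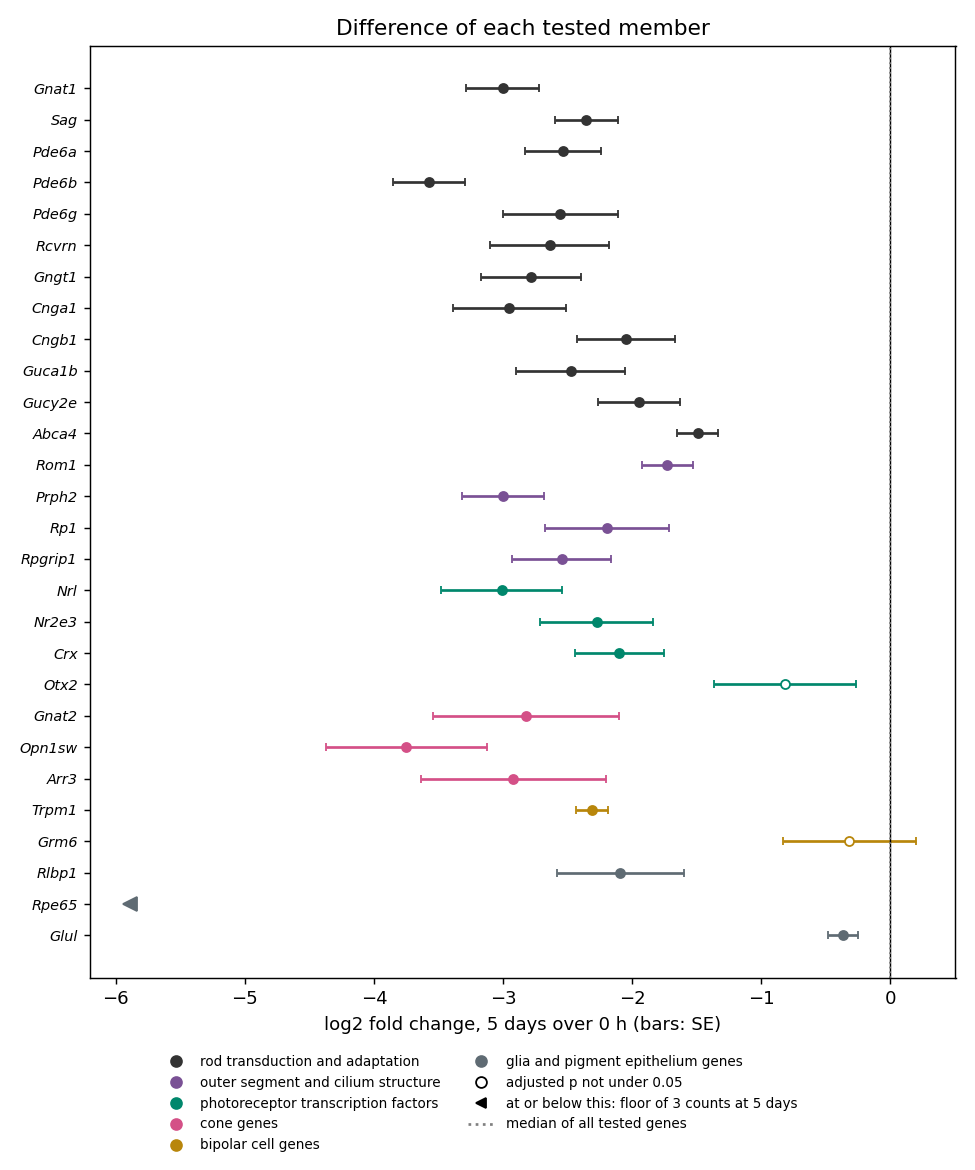
Log2 fold change of 5 days over 0 h for the 28 tested genes, with SE bars, coloured by role; filled points passed the adjusted p threshold and the triangle marks Rpe65, which had 0 counts at 5 days. Pde6b at -3.57 and Opn1sw at -3.75 lie furthest left among points with counts at both times, and Glul, Grm6 and Otx2 lie nearest to 0.

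Within the rod signal, the shares of 5 of the 13 genes did not overlap between the 2 times. Of the counts summed over the 13 rod cascade genes in a library (502, 492 and 1101 counts at 5 days and 3242, 3494 and 5051 at 0 h), Abca4 took 27.5, 39.6 and 23.9% at 5 days, against 13.9, 16.9 and 14.5% at 0 h. Exact 95% binomial intervals, which cover counting error only, put the lowest 5 day share of Abca4 at 21.4 to 26.5% and its highest 0 h share at 15.6 to 18.1%. Gnat1 took 18.1, 13.6 and 19.0% at 5 days, against 28.9, 24.2 and 25.3% at 0 h. Pde6b took 3.78, 3.86 and 4.36% at 5 days, against 8.42, 9.42 and 9.50% at 0 h. Gucy2e took 4.58, 3.46 and 4.27% at 5 days, against 2.96, 3.03 and 3.01% at 0 h. Cnga1 took 0.996, 1.42 and 2.82% at 5 days, against 2.84, 3.06 and 2.91% at 0 h. For these 5 genes the times did not overlap, with Abca4 and Gucy2e higher and the other 3 lower at 5 days. The gap for Cnga1 was narrow, with 2.82% in replicate 3 of 5 days (interval 1.92 to 3.97%) against 2.84% in replicate 1 of 0 h. For Gucy2e the interval of replicate 2 of 5 days, 2.03 to 5.47%, covered its 0 h shares. The shares of the other 8 genes overlapped, as for Sag, with 15.2 ± 1.80% at 5 days and 13.9 ± 1.53% at 0 h (SD, n = 3 each). Shares in a sum are not independent of each other. The genes given here were chosen after their values were seen, and no test was run on them.

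**Figure D3:**
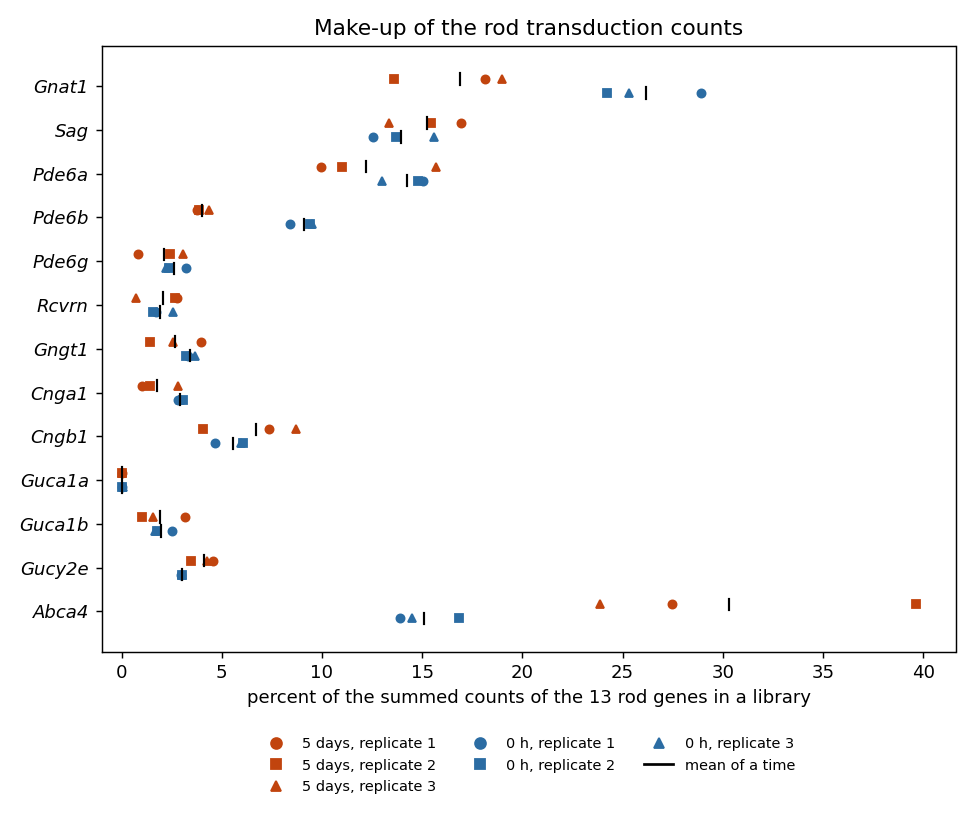
Percent of the summed counts of the 13 rod cascade genes taken by each gene in each library, 5 days above 0 h, with black ticks at the mean of a time. Abca4 lies to the right at 5 days, with a mean of 30.3% against 15.1% at 0 h, and Gnat1 and Pde6b lie to the left.

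Structural genes of the outer segment and its cilium fell in all 4 cases, beside 22.5% lower calls over all tested genes. Their summed level was 19.1, 16.95 and 50.04 CPM at 5 days, against 132.9, 127.5 and 200.2 CPM at 0 h. Prph2, a tetraspanin that bends the disc rim, had 3.34, 3.89 and 9.85 CPM at 5 days, against 42.8, 39.5 and 59.7 CPM at 0 h, a log2 fold change of -3.0 (SE 0.32). Its partner tetraspanin Rom1 fell less, with 7.64, 6.53 and 9.31 CPM at 5 days, against 21.8, 25.8 and 30.5 CPM at 0 h, a log2 fold change of -1.73 (SE 0.20). Rp1, a microtubule-associated protein of the axoneme, was the one of these 4 most moved by a single library. It had 3.82, 3.52 and 19.7 CPM at 5 days and 35.6, 35.3 and 58.1 CPM at 0 h. The Rp1 log2 fold change was -2.19 (SE 0.48), and -3.56 without replicate 3 of 5 days. Rpgrip1, which anchors a regulator at the connecting cilium, averaged 6.16 ± 4.38 CPM at 5 days and 37.2 ± 13.1 CPM at 0 h (SD, n = 3 each), a log2 fold change of -2.55 (SE 0.38) that was -3.37 without replicate 3 of 5 days. Without that library the Prph2 log2 fold change was -3.71. In GENCODE M21, 8.70% of the exon bases of Rpgrip1 overlap Supt16 on the opposite strand. How the counting treated strand is not stated, so a part of its counts is uncertain.

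Among transcription factors, the rod regulators fell and the broader factor was not called. Nrl, which directs precursors to the rod fate, had 2.71, 0.502 and 1.53 CPM at 5 days, against 11.4, 8.01 and 17.8 CPM at 0 h, a log2 fold change of -3.01 (SE 0.47). Nr2e3, its nuclear receptor partner that represses cone genes, fell by 2.28 on the log2 scale (SE 0.44). Crx, the homeodomain activator of photoreceptor genes, had 3.34, 2.01 and 5.69 CPM at 5 days, against 11.2, 17.4 and 19.4 CPM at 0 h, a log2 fold change of -2.10 (SE 0.35). Otx2, which acts upstream of Crx and is also used by bipolar and pigment epithelium cells, had 0.477, 1.63 and 1.86 CPM at 5 days and 1.35, 2.63 and 3.22 CPM at 0 h. The times overlapped, and the log2 fold change of -0.82 (SE 0.55) was not called (adjusted p = 0.24 in the edgeR fit). Otx2 rested on 33 counts at 5 days and 61 at 0 h.

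Promoter letters that CRX and NRL are known to recognise were looked up for all members. RefSeq promoter windows (build GRCm38.p6, 250 bases before to 50 after the start site) matched 25 of the 31 genes by symbol. The CRX-type core TAATCC, searched on both strands (GGATTA on the other), was found in 13 of the 25 genes (52%), against 32% of 25 other photoreceptor genes and 8.14% of all 27025 genes with a window. By role it was in 7 of 8 rod cascade genes, 2 of 4 transcription factor genes and 1 gene in each other role. Of 15 matches, 13 lay within 120 bases before the start site. The NRL-type letters TGCTGA, searched on both strands, were found in 7 of the 25 genes (28%), against 40% of the 25 other photoreceptor genes and 21.7% of all genes, and 0 matches of the 2 motifs overlapped. A match is a description of letters and no evidence of binding. The lines give the 120 bases before the start site, 5′ to 3′ on the strand of the gene, with motif letters in capitals: rod genes, Crx and the cone gene Gnat2 with the core, Pde6b with TGCTGA alone, and Glul with neither.
Gngt1, chr6:3993888-3994007, + strand: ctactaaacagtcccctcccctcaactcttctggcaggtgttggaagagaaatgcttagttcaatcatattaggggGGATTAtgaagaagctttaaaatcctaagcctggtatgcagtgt
Cngb1, chr8:95306586-95306705, - strand: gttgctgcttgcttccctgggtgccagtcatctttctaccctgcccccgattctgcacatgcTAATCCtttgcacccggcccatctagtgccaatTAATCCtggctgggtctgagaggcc
Gucy2e, chr11:69237023-69237142, - strand: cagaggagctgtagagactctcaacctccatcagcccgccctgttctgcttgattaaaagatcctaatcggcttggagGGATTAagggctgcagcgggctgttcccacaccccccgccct
Abca4, chr3:122044340-122044459, + strand: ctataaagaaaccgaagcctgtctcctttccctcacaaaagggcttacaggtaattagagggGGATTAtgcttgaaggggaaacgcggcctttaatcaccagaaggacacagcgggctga
Crx, chr7:15879956-15880075, - strand: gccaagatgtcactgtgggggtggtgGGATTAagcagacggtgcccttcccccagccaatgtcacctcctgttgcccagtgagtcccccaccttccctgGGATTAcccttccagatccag
Gnat2, chr3:108092946-108093065, + strand: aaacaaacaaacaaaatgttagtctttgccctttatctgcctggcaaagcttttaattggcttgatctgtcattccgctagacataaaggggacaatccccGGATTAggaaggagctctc
Pde6b, chr5:108388253-108388372, + strand: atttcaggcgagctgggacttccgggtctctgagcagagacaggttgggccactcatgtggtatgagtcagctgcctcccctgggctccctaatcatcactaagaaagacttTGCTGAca
Glul, chr1:153899809-153899928, + strand: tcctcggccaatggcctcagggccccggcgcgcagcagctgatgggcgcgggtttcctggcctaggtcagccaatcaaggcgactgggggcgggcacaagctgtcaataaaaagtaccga
Tested genes with the core and counts at both times spanned log2 fold changes from -2.95 for Cnga1 to -0.82 for Otx2. Tested genes with a window but no TAATCC spanned -3.75 for Opn1sw to -0.32 for Grm6, with Pde6b at -3.57 and Glul at -0.37. Any part of the motif in the falls was not tested.

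Cone transcripts were scarce at both times and lower at 5 days. The 4 cone genes summed to 0.637, 0.628 and 2.08 CPM at 5 days, against 9.97, 7.90 and 14.7 CPM at 0 h. All 3 that were tested fell, beside 22.5% lower calls over all tested genes. But these 3 reached the filter's level in 0 h libraries only, so their calls are no separate support for a fall. Opn1sw, the short-wavelength cone pigment, had 1, 1 and 5 counts at 5 days (0.159, 0.126 and 0.547 CPM), against 29, 25 and 49 counts (3.91, 2.74 and 5.84 CPM) at 0 h. Its log2 fold change was -3.75 (SE 0.63), and -4.75 without replicate 3 of 5 days. In GENCODE M21 15.5% of its exon bases overlap Calu on the opposite strand, so its counts are uncertain. Arr3, the cone arrestin, had 0, 3 and 9 counts at 5 days and 21, 23 and 52 at 0 h, a log2 fold change of -2.92 (SE 0.72) that was -4.13 without replicate 3 of 5 days. Gnat2, the cone transducin alpha subunit, had 3, 0 and 4 counts at 5 days and 21, 21 and 13 at 0 h, a log2 fold change of -2.82 (SE 0.72). Opn1mw, the medium-wavelength pigment, did not pass the filter. Its 2 counts over the 5 day libraries and 15 over the 0 h libraries gave a level 7.03-fold lower at 5 days (95% counting interval 1.64 to 63.4).

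Of the 3 bipolar cell genes 1 fell, 1 was not called and 1 was not tested, beside 22.5% lower calls over all tested genes. Trpm1, the cation channel of ON bipolar cells, which pigment cells also express, had 18.9, 24.7 and 26.7 CPM at 5 days, against 114.8, 118.9 and 118.0 CPM at 0 h. The log2 fold change of -2.31 (SE 0.13) came with the lowest adjusted p among the members, 4.08e-08 in the edgeR fit. Grm6, the glutamate receptor that gates this channel in bipolar cells, had 1.27, 0.753 and 1.97 CPM at 5 days and 1.35, 1.43 and 2.27 CPM at 0 h. Its libraries overlapped, and the log2 fold change of -0.32 (SE 0.52) was not called (adjusted p = 0.64 in the edgeR fit). Pcp2, a G protein modulator of ON bipolar cells, had 3, 0 and 5 counts at 5 days and 9, 9 and 21 at 0 h and did not pass the filter. In GENCODE M21 Pet100 covers 51.5% of the exon bases of Pcp2 on the opposite strand, and Gm12660 covers 11% of those of Grm6, so both are uncertain.

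As Trpm1 is also a pigment cell gene, the pigment cell list stands beside it. Of its 8 genes 5 were tested, and Oca2, a melanosomal transporter, was the one called, beside 47.6% of all tested genes. Oca2 had 2.71, 1.13 and 0.657 CPM at 5 days, against 91.7, 80.3 and 85.5 CPM at 0 h, a log2 fold change of -5.94 (SE 0.26). Oca2 needed 0 h libraries to pass the low-count filter, so its call is no separate support for a fall. The summed level of the 8 was 16.1 to 41.9 CPM at 5 days and 97.1 to 120.4 CPM at 0 h, most of the 0 h sum being Oca2. The defining pigment enzymes Tyr, Tyrp1 and Dct were not called, with log2 fold changes of 1.10, 0.64 and 0.08, and no gene of the list was at 0 over a whole time. Their part in the fall of Trpm1 was not tested.

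Trpm1 was more even over the 0 h libraries than the rod genes. At 0 h its SD was 1.88% of its mean over 3 libraries, whereas for the 16 tested genes of the rod cascade and outer segment this ranged from 16.2 to 53.6% with a median of 24.2%. All 16 had more CPM in replicate 3 of 0 h than in the mean of the other 2 libraries, by a median ratio of 1.46, and that ratio was 1.01 for Trpm1. At 5 days 15 of the 16 were higher in replicate 3 than in the mean of the other 2, with a median ratio of 1.97. The exception was Rcvrn, at 0.454. The corneal epithelium genes Krt5 and Krt14 were also high in that library, at 19.9 and 45.8 CPM, against 0.159 to 0.318 CPM in the other 5 day libraries. Krt12, the defining corneal keratin, did not follow them, with 1.75, 0 and 1.09 CPM at 5 days and 0 counts at 0 h. The summed level of the 3 genes was 0.502 to 66.8 CPM at 5 days and 0 to 0.358 CPM at 0 h. Their part in the result was not tested.

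**Figure D4:**
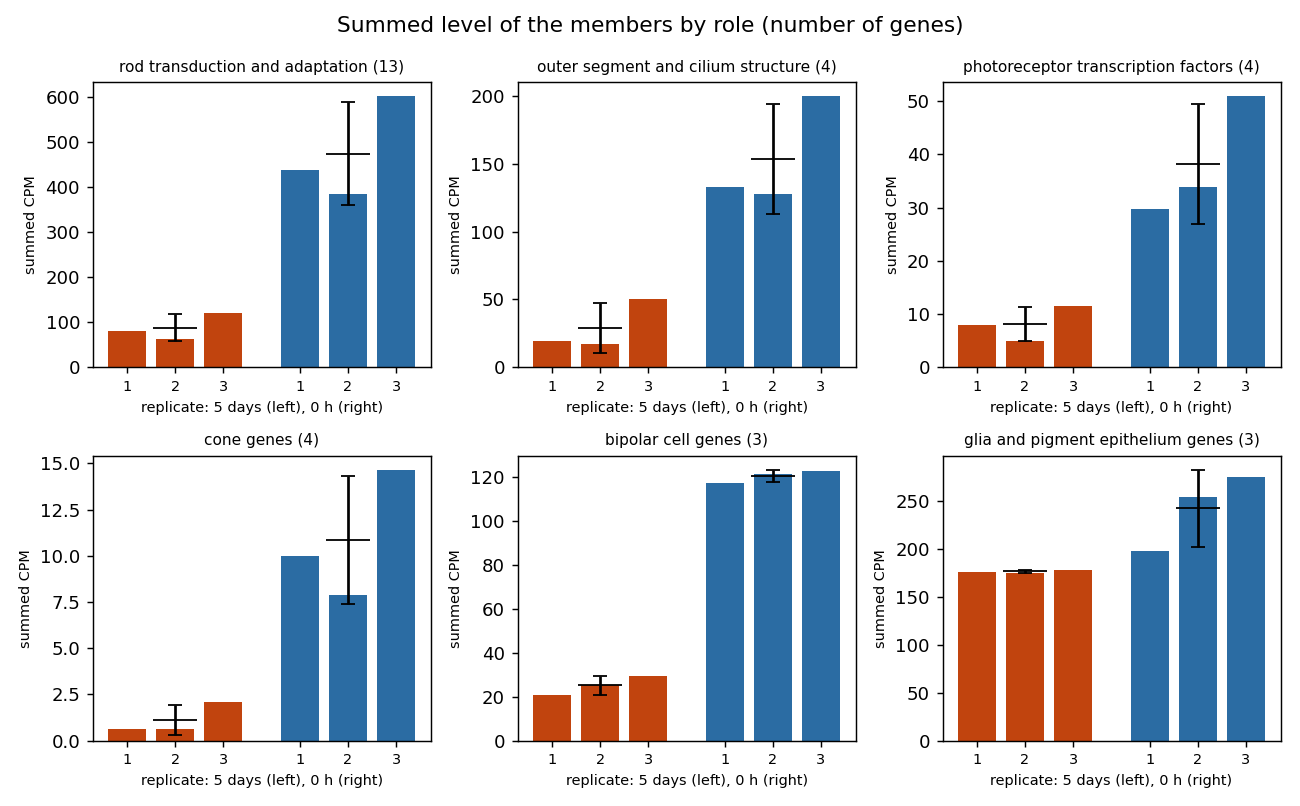
Summed CPM of the members of each role in each library, 5 days (orange, left) and 0 h (blue, right), with the mean and SD of a time in black; the number of genes summed is in each panel title. Bars of 0 h replicate 3 are the tallest in each panel, while the bipolar panel, which is mostly Trpm1, is even at 0 h and the glia panel, which is mostly Glul, changes least.

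All 3 genes of glia and pigment epithelium fell, by very unequal amounts, beside 22.5% lower calls over all tested genes. Rpe65, the isomerase of the visual cycle that defines the pigment epithelium, had 42, 49 and 99 counts at 0 h (5.66, 5.38 and 11.8 CPM) and 0 counts in each library of 5 days. Against a floor of 3 counts over the 5 day libraries, it was at least 59.4-fold lower at 5 days. Rlbp1, a retinaldehyde-binding protein of Müller glia and pigment epithelium, had 3.82, 1.63 and 1.86 CPM at 5 days, against 4.71, 8.34 and 17.3 CPM at 0 h. Its log2 fold change of -2.09 (SE 0.49) leaned on replicate 3 of 0 h, without which it was -1.46. Glul, glutamine synthetase, which clears glutamate in Müller glia and is expressed in many tissues, was the most abundant member. It had 172.5, 173.6 and 176.2 CPM at 5 days, against 186.9, 240.3 and 246.3 CPM at 0 h. The log2 fold change of -0.37 (SE 0.11) passed narrowly (adjusted p = 0.0181 in the edgeR fit). The call was lost with total library size (-0.24) and without replicate 1 of 5 days (-0.36), replicate 2 of 0 h (-0.32) or replicate 3 of 0 h (-0.30).

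Levels between genes can be compared only per length, here as CPM per kilobase of the union of exons in GENCODE M21. Glul led at both times, with 52.4 ± 0.568 at 5 days and 67.6 ± 9.83 at 0 h (SD, n = 3 each, CPM per kilobase). Gnat1 came next at 0 h with 40.9 ± 9.87 CPM per kilobase, well above Rom1 at 17.2 ± 2.87, Prph2 at 15.8 ± 3.61 and Pde6a at 14.3 ± 2.30. The last 3 did not differ beyond their spread. At 5 days Gnat1 averaged 5.04 ± 2.40 and Rom1 5.16 ± 0.921 CPM per kilobase, again within their spread. Cone genes stood low at 0 h, from 1.64 CPM per kilobase for Arr3 and 1.63 for Opn1sw to 0.744 for Gnat2 and 0.385 for Opn1mw. Trpm1, at 7.95 ± 0.149 CPM per kilobase at 0 h, stood far above the receptor Grm6, at 0.310 ± 0.0939.

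Other genes listed for these and other retinal cell types were set beside the members. The lists were chosen with earlier results of these data known. Of 35 other photoreceptor genes 30 were tested, 26 fell, 1 rose and 3 were not called, beside 22.5% lower calls over all genes. The median change of the 30 was -2.21 on the log2 scale. Some of the 26, such as Fscn2, Nxnl1 and Kcnv2, stayed under the filter's 1.22 CPM in every 5 day library. These needed their 0 h libraries to pass, so their calls are no separate support for a fall. Rbp3, the retinoid carrier of the matrix around photoreceptors, had 20.7, 5.27 and 37.6 CPM at 5 days, against 74.3, 77.7 and 101.8 CPM at 0 h. The 5 day libraries were scattered but all below 0 h, with a log2 fold change of -1.98 (SE 0.42). Fscn2, an actin bundler of photoreceptors, had 2 counts over the 5 day libraries and 71 over the 0 h libraries, a 33.3-fold lower level (95% counting interval 8.88 to 280.3). The cone transducin subunit Gngt2 was the gene that rose, with 2.86, 3.14 and 4.16 CPM at 5 days, against 0.135, 1.54 and 0.358 CPM at 0 h. Gngt2 needed 5 day libraries to pass, so its call is no separate support for a rise.

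Other retinal neurons were thinly represented, and their calls stand beside 22.5% lower and 25.1% higher calls over all tested genes. Of 9 other bipolar genes 6 were tested, 5 fell and 0 rose, among them Nyx, a scaffold of the Trpm1 complex, by 2.72 on the log2 scale (SE 0.40) and Rgs11, which deactivates the bipolar G protein, by 0.75 (SE 0.19). Of 11 amacrine and horizontal cell genes only 3 were tested. The glycine transporter Slc6a9 and the GABA-synthesising enzyme Gad1 fell by 0.72 and 2.15, while Gad2, its sister enzyme, rose by 4.40 on the log2 scale (SE 0.31). The dopamine marker Th had 0 counts in all libraries. Of 11 ganglion cell genes 7 were tested, 4 fell and 0 rose. The neurofilament Nefl fell by 1.78 (SE 0.42) and the glutamate transporter Slc17a6 by 3.21 (SE 0.89), while Thy1 had a log2 fold change of 1.01 and was not called. Nyx, Cabp5, Gad1, Slc17a6, Nefm and Nefh did not reach the filter's 1.22 CPM in every 5 day library. They needed 0 h libraries to pass, so their calls are no separate support for a fall. Gad2 likewise needed 5 day libraries, so its call is no separate support for a rise.

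Müller glia and pigment epithelium genes outside the members moved both ways, beside 22.5% lower and 25.1% higher calls over all tested genes. Of 7 other Müller glia genes, all tested, 4 fell and 2 rose. Dkk3, a secreted Wnt modulator, had a level of 2085 ± 84.1 CPM at 5 days and 3351 ± 127 CPM at 0 h (SD, n = 3 each), and Car14, a membrane carbonic anhydrase, fell by 2.81 on the log2 scale (SE 0.25). The retinol dehydrogenase Rdh10 rose by 1.93 (SE 0.14). Of 7 other pigment epithelium genes 4 were tested, 3 fell and 1 rose. The 3 that fell, Ttr, Rgr and Rrh, stayed under the filter's 1.22 CPM in every 5 day library. They needed their 0 h libraries to pass, so their calls are no separate support for a fall. Ttr, the thyroxine and retinol carrier, had 0, 0.251 and 0.547 CPM at 5 days, against 22.5, 13.9 and 36.1 CPM at 0 h, a log2 fold change of -6.27 (SE 0.56). Rdh5, a retinol dehydrogenase of the visual cycle, rose by 1.71 (SE 0.34).

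**Figure D5:**
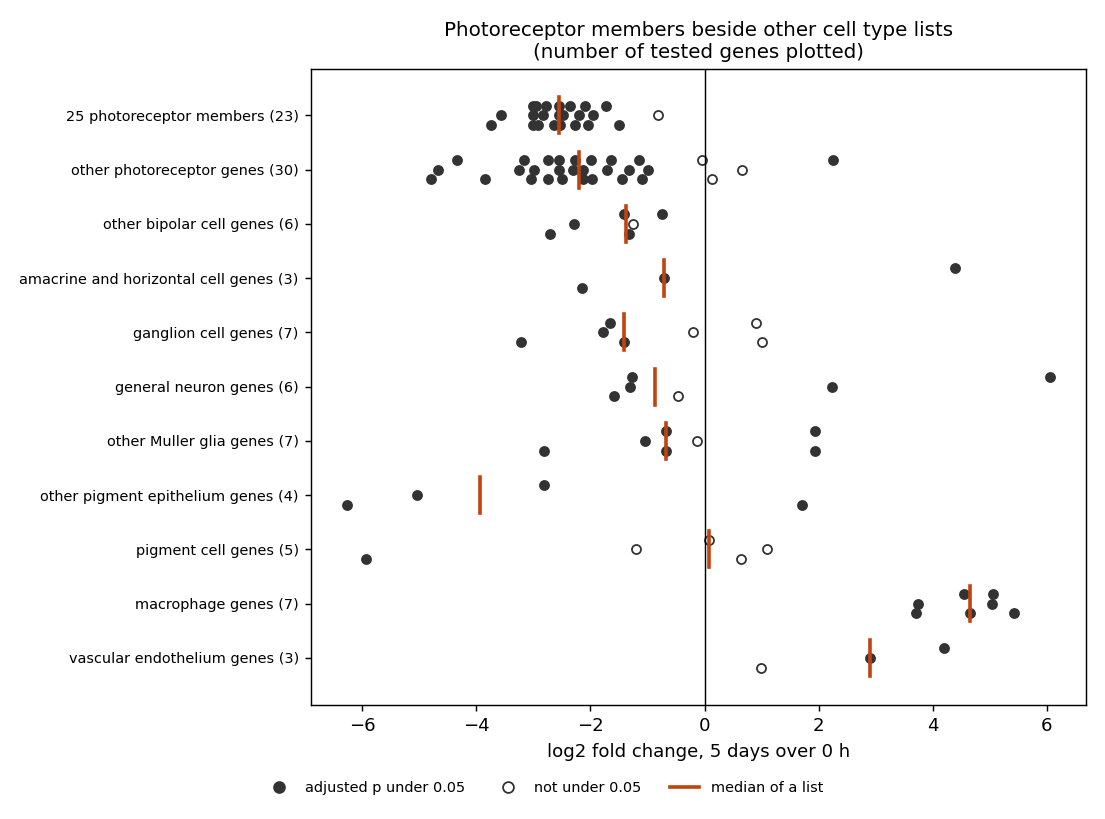
Log2 fold change of 5 days over 0 h for the tested photoreceptor members and for the other cell type lists, 1 point a gene with counts at both times, filled where the adjusted p was under 0.05, and an orange bar at the median of a list. The 2 photoreceptor rows sit at medians of -2.55 and -2.21, and the macrophage row at 4.65. The lens epithelium list, with a median of -1.30, is not plotted, and no corneal epithelium gene was tested.

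Markers of cells that enter wounds moved the other way in the same libraries. All 7 macrophage genes rose, beside 25.1% higher calls over all tested genes. Their summed level was 451.2 to 635.3 CPM at 5 days and 14.3 to 30.9 CPM at 0 h, led by Lyz2. Of 4 vascular endothelium genes 3 were tested and 2 rose, Pecam1 by 4.19 on the log2 scale (SE 0.52), with summed levels of 16.8 to 37.1 CPM at 5 days and 2.83 to 9.54 CPM at 0 h. Ptprc, Adgre1, C1qa, Cd68, Pecam1 and Cdh5 did not reach the filter's 1.22 CPM in every 0 h library. They needed 5 day libraries to pass, so their calls are no separate support for a rise. No gene of either list was at 0 over all libraries of a time. Their part in the fall of retinal transcripts was not tested.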

How the data were processed

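The members and the gene lists were chosen with earlier results of these data known. The deposited files hold whole-number gene counts, 1 file a library. The submitters' processing notes list GRCm39, HISAT2, HTSeq and edgeR. Neither tool versions nor the annotation, strandedness or overlap mode of the counting is given in the sources used here. Per the labels, total RNA went into a stranded low-input kit. The HTSeq summary entries, 32.3 to 42.6% of reads, were left out. Symbols came from GENCODE M21 (91.2% of genes matched), which also gave exon lengths and overlaps on GRCm38. Coordinates are those of the RefSeq windows.

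Genes passing the default low-count filter of edgeR 4.0.16 (R 4.3.3) were TMM-scaled and entered its quasi-likelihood fit over all 6 libraries, after a check on simulated counts. SE is that of the log2 fold change. An exact permutation test of 3 against 3 libraries cannot go below p = 0.1, and none was run. Floors and intervals cover counting error alone. All 31 members are named. From each other list the text names the called gene of highest level and the largest change each way, and further genes were chosen after their values were seen. Other settings were DESeq2 size factors, total library size, TMM without crystallin and mitochondrial genes, no or a stricter low-count filter, DESeq2 1.42.0, limma-voom (limma 3.58.1), a replicate block and each library left out. Figures used matplotlib 3.10.9.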

Additional observations from a re-analysis of the deposited data

How the results depend on the processing

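Over 14 alternatives, 389 values of the 28 tested members were recomputed. Of these 385 kept their direction and side of the threshold, 4 lost the call, all of Glul, and 0 reversed. The number of members called lower was 25 to 27 under the alternatives, with 0 higher under each. It was 26 with DESeq2 and with limma-voom, and 27 with no low-count filter. Another scaling moved a member's log2 fold change by at most 0.14. With total library size the summed level of the bipolar genes at 0 h was 115.2 CPM, against 120.5 with TMM, and that of the glia and pigment epithelium genes at 5 days was 184.6 CPM, against 176.5. With the replicate number of the titles as a block, 26 members were called lower, and 3550 genes were higher and 3188 lower over all tested genes, against 3683 and 3301 without it. Deviations of same-numbered libraries correlated at 0.0385, -0.0897 and 0.0434, so the numbers were not taken as pairs. The submitters' library names carry other numbers than the titles for some 5 day samples, so same-numbered libraries need not correspond in the block or in these correlations. Guca1a, Opn1mw and Pcp2 had too few counts to pass the low-count filter.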

Other observations

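Of 8 listed general neuron genes 6 were tested, 3 fell, 2 rose and 1 was not called. Over all tested genes 22.5% were called lower and 25.1% higher. The synaptic genes Snap25, Syt1 and Syp fell by 1.59, 1.27 and 1.30 on the log2 scale (SE 0.29, 0.32 and 0.27). Stmn2, a microtubule regulator of growing axons, had 41.2, 41.1 and 81.0 CPM at 5 days, against 1.21, 0.549 and 0.715 CPM at 0 h, a log2 fold change of 6.06 (SE 0.38). The neuronal tubulin Tubb3 had 8.43, 12.3 and 13.2 CPM at 5 days, against 2.29, 2.63 and 2.27 CPM at 0 h, a log2 fold change of 2.24 (SE 0.29). Gfap, an intermediate filament of reactive glia, had 111.4, 98.3 and 79.7 CPM at 5 days, against 20.1, 26.1 and 29.3 CPM at 0 h, a log2 fold change of 1.93 (SE 0.16). Stmn2, Tubb3, Gfap, Gad2, Gngt2, Rdh10 and Rdh5, from the retinal and general neuron lists, were thus higher at 5 days, while the rod genes were lower. Which cells these transcripts came from was not tested. Stmn2, Gad2 and Gngt2 needed 5 day libraries to pass the low-count filter, so their calls are no separate support for a rise.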
